A study of Mus musculus with 6 samples.

Results

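The genes described here are those of the endothelial adherens junction, the belt of cadherins and catenins that holds neighbouring ECs together. They are VE-cadherin (Cdh5) and N-cadherin (Cdh2), the adhesion receptor PECAM1 (Pecam1, also called CD31), and the catenins β-catenin (Ctnnb1), plakoglobin (Jup), α-catenin (Ctnna1) and p120-catenin (Ctnnd1). These 7 genes were taken by symbol from 24346 genes. Global transcript expression was compared between ECs from MC38 tumors of WT mice (3 samples) and of Apelin-KO mice (3 samples). MC38 is a mouse colon carcinoma cell line inoculated under the skin. All animals were on the C57BL/6 background and 8 to 10 weeks old, and the tumors were taken at day 19. The Apelin-KO mice lacked Apelin from the embryo on, so that their vessels also developed without it. The sample titles of both groups add the word saline, which is not explained for this experiment. ECs were sorted as CD31-positive and CD45-negative cells, so that PECAM1 protein on the surface was itself the gate and Pecam1 had to be present in every sample. It is not stated whether a sample was 1 mouse or a pool, and p-values measure only the spread between these samples.

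In the adherens junction, VE-cadherin molecules of adjacent ECs bind each other outside the cell. Inside the cell, the tail of VE-cadherin binds p120-catenin, which keeps the cadherin at the membrane, and either β-catenin or plakoglobin, which recruit α-catenin as the link to actin. β-catenin also acts in the nucleus as the effector of Wnt signalling, and plakoglobin is shared with desmosomes. PECAM1 is an immunoglobulin-family receptor that lies along the same cell borders without being bound to the junctional belt, and it takes part in flow sensing and in the passage of leukocytes. N-cadherin is also made by ECs, but lies mostly outside the junction and contacts pericytes. Junctions of tumor vessels are often loose, and Apelin has been linked to the cell-cell adhesion of ECs.

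The values are FPKM, a read count divided by transcript length and by the mapped reads of the sample, so that levels can be compared between genes. The files hold no read numbers. From the steps in the lowest values, each sample was estimated to rest on between 8920000 and 10170000 reads. Apln, the gene removed in the Apelin-KO mice, was at 432, 435 and 504 FPKM in WT 1 to 3, against 9.96, 17.5 and 24.3 FPKM in Apelin-KO 1 to 3. Among markers of the sorted cells, Kdr, a VEGF receptor of ECs, lay between 299 and 374 FPKM, and all 15 endothelial markers were above 0 in each sample. Markers of other cells were present at lower summed levels. The 20 hematopoietic markers summed to between 285 and 984 FPKM in WT samples and between 126 and 341 FPKM in Apelin-KO samples, and the 14 fibroblast markers summed to between 208 and 362 FPKM and between 140 and 215 FPKM. For comparison, the 15 endothelial markers summed to between 5753 and 6922 FPKM in WT samples and between 6840 and 7403 FPKM in Apelin-KO samples. Tumor cell markers (14 genes) summed to at most 21.9 FPKM in any sample, and the epithelial marker Epcam was listed at 0 in WT 2, WT 3, Apelin-KO 1 and Apelin-KO 3.

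**Figure D1:**
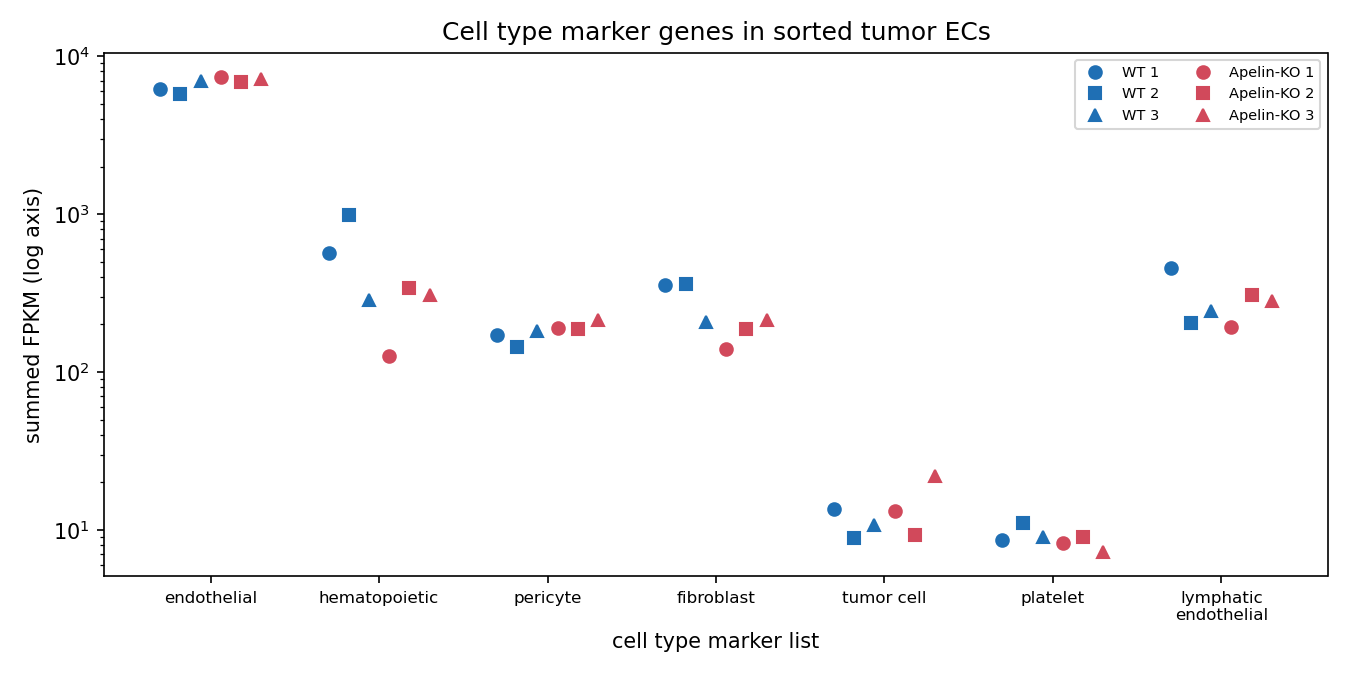
Summed FPKM of each cell type marker list (log axis) in the 3 WT and 3 Apelin-KO samples, 1 point per sample. Endothelial markers lie at 5753 FPKM or more in every sample, and hematopoietic markers spread from 126 FPKM in Apelin-KO 1 to 984 FPKM in WT 2.

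The catenin genes were also looked at where transcription starts. The windows of up to 250 bases before an annotated start are shown for p120-catenin, whose levels did not overlap between the genotypes, and for β-catenin and plakoglobin, whose levels did. They come from RefSeq on GRCm38.p6, and 3 of the 7 genes were matched, while Cdh5, Pecam1, Cdh2 and Ctnna1 were not. Capitals mark the letters searched, on both strands. These were AGGAAG for factors of the ETS family, AGATAA for those of the GATA family, CTTTGA for those of the TCF/LEF family, TATAAA for the TATA box and GGGCGG for the SP/KLF family. The windows are chr2:84650766-84650990 on the minus strand, chr9:120933150-120933399 on the plus strand and chr11:100397791-100398040 on the minus strand, written 5′ to 3′. The p120-catenin window was shortened to 225 bases so that it ends before the first annotated exon.
Ctnnd1: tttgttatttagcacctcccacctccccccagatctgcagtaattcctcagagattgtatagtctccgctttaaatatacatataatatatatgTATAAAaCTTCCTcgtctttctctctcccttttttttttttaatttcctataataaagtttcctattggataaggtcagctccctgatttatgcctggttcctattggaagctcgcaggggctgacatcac
Ctnnb1: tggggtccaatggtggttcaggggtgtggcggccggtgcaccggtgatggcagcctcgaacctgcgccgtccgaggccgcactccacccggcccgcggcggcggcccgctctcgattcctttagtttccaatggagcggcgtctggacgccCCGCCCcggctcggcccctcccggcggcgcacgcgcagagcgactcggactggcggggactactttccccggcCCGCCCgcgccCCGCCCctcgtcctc
Jup: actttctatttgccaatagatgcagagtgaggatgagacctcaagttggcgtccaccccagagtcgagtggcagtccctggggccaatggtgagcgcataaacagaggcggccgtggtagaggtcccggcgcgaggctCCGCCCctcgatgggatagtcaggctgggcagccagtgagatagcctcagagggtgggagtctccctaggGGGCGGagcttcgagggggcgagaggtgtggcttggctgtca
The Ctnnd1 window held 1 match to CTTCCT, the reverse complement of the ETS letters, and 1 TATAAA. Of 32851 windows of 250 bases, 29.5% and 12.4% held these letters. The TATAAA lies 151 to 156 bases before the annotated start. A further Ctnnd1 start upstream, whose window was not printed since it overlaps an exon of Btbd18 on the other strand, had 2 overlapping matches to CTTCCT. A further Ctnnb1 window, not printed since it runs into an exon, overlaps the printed one. Its 2 matches to CCGCCC are the same bases as 2 of those in the printed window. It also had 1 match to TATAAA, 115 to 120 bases before its start. The Ctnnb1 window held 3 matches to CCGCCC and the Jup window 1 match to each orientation of these letters, which 32.7% of all windows held. None of the 3 printed windows held the GATA or TCF/LEF letters, which stood in 9.99% and 13.8% of all windows. A match is a string of letters and does not show that a factor binds there.

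Within the junction, the order of the levels was the same in all 6 samples. Pecam1 was the highest, with a mean over the 6 samples of 682 FPKM, and it ranked 58th of all genes. Ctnnb1 followed with 375 FPKM, Cdh5 with 214 FPKM, Ctnna1 with 167 FPKM, Jup with 94.97 FPKM, Ctnnd1 with 69.5 FPKM and Cdh2 with 0.381 FPKM. Each gene lay above the next in 6 of 6 samples. Taken over all samples, the ranges of Cdh5 (155 to 294 FPKM) and Ctnna1 (139 to 185 FPKM) overlapped, and no other neighbours did. Of the 7 genes, 6 had a mean of at least 1 FPKM and entered the comparison of genotypes, and Cdh2 did not.

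In the FPKM values, VE-cadherin was lower in WT than in Apelin-KO ECs, without passing the adjusted threshold of 0.05. The publication also measured VE-cadherin in tumor ECs by qRT-PCR, and reports no difference between mice with and without Apelin. The Cdh5 gene spans 104101625 to 104144511 of chromosome 8 (GRCm38, plus strand), and its longest transcript has 12 exons. Its level was 172, 155 and 214 FPKM in WT 1 to 3, against 219, 232 and 294 FPKM in Apelin-KO 1 to 3. The highest WT sample lay just below the lowest Apelin-KO sample, so that the groups did not overlap. WT ECs averaged 180 ± 30.6 FPKM and Apelin-KO ECs 248 ± 40.3 FPKM (SD, n = 3 each), a ratio of means of 1.38. The log2 fold change, WT minus Apelin-KO on the log2(FPKM + 1) scale, was -0.46 (standard error [SE] 0.17, 95% interval -0.86 to -0.07, adjusted p = 0.512 by limma, Benjamini-Hochberg method over 10964 genes). The unadjusted p-value was 0.0277 from the same limma fit, and thus the difference passed the unadjusted but not the adjusted threshold of 0.05.

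PECAM1 showed the same direction. Pecam1 lies on chromosome 11 from 106654217 to 106750628 on the minus strand, with 16 exons in its longest transcript. It was at 586, 553 and 671 FPKM in WT 1 to 3, against 689, 745 and 846 FPKM in Apelin-KO 1 to 3. Again all WT samples lay below all Apelin-KO samples, with a narrow gap between WT 3 and Apelin-KO 1. The means were 604 ± 60.5 FPKM and 760 ± 79.5 FPKM (SD, n = 3 each), and the log2 fold change was -0.33 (SE 0.12, 95% interval -0.63 to -0.04, unadjusted p = 0.0323, adjusted p = 0.513 from limma). Since the cells were gated on CD31, the level of Pecam1 is not independent of the sort.

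Among the catenins, p120-catenin had groups that did not overlap. Ctnnd1, on chromosome 2 from 84600071 to 84650765 on the minus strand, was at 59.5, 63.1 and 68.1 FPKM in WT 1 to 3, against 71.5, 75.8 and 78.9 FPKM in Apelin-KO 1 to 3. All WT samples were lower, by a smaller fold than for Cdh5. The means were 63.6 ± 4.36 FPKM and 75.4 ± 3.72 FPKM (SD, n = 3 each), with a log2 fold change of -0.24 (SE 0.10, 95% interval -0.48 to -0.00482, unadjusted p = 0.0466, adjusted p = 0.525 from limma).

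α-catenin, β-catenin and plakoglobin had overlapping groups. Ctnna1, on chromosome 18 from 35118859 to 35254779, was at 151, 139 and 178 FPKM in WT 1 to 3, against 169, 185 and 183 FPKM in Apelin-KO 1 to 3. WT 3 lay above Apelin-KO 1, and the log2 fold change was -0.20 (SE 0.12, 95% interval -0.48 to 0.08, adjusted p = 0.634 from limma). Exons of Ctnna1 overlap those of Lrrtm2 on the other strand, and exons of Ctnnb1 those of Ulk4, and whether strand was used to assign reads is not stated. On the same strand, exons of Ctnnd1 overlap those of Gm28635, and exons of Ctnnb1 those of Mir7090, so that reads there cannot be told apart by strand.

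Ctnnb1, on chromosome 9 from 120929216 to 120960507, was at 367, 318 and 386 FPKM in WT 1 to 3, against 389, 406 and 382 FPKM in Apelin-KO 1 to 3. The Apelin-KO samples lay close together, and Apelin-KO 3 lay below WT 3. The log2 fold change was -0.14 (SE 0.11, 95% interval -0.40 to 0.12, adjusted p = 0.707 from limma). Plakoglobin, which can take the place of β-catenin on the cadherin tail, had the smallest log2 fold change of the 6 genes tested. Jup, on chromosome 11 from 100368958 to 100397763, was at 93.4, 82.9 and 96.4 FPKM in WT 1 to 3, against 111, 91.9 and 94.1 FPKM in Apelin-KO 1 to 3. Its log2 fold change was -0.12 (SE 0.12, 95% interval -0.40 to 0.16, adjusted p = 0.777 from limma). The intervals of Ctnna1, Ctnnb1 and Jup contain 0 and do not show that their levels were equal.

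N-cadherin was barely detected. Cdh2, on chromosome 18 from 16588877 to 16809246, was at 0.507, 0.497 and 0.342 FPKM in WT 1 to 3, against 0.143, 0.371 and 0.426 FPKM in Apelin-KO 1 to 3. The groups overlapped. These values stand for an estimated 14.5 to 23.7 reads in WT samples and 6.16 to 18.5 reads in Apelin-KO samples, against 5237 reads or more for Cdh5 in every sample. Without the filter on low genes, the log2 fold change was 0.15 (95% interval -0.12 to 0.41, adjusted p = 0.723 from limma). N-cadherin made up between 0.0654% and 0.320% of the summed FPKM of both cadherins.

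**Figure D2:**
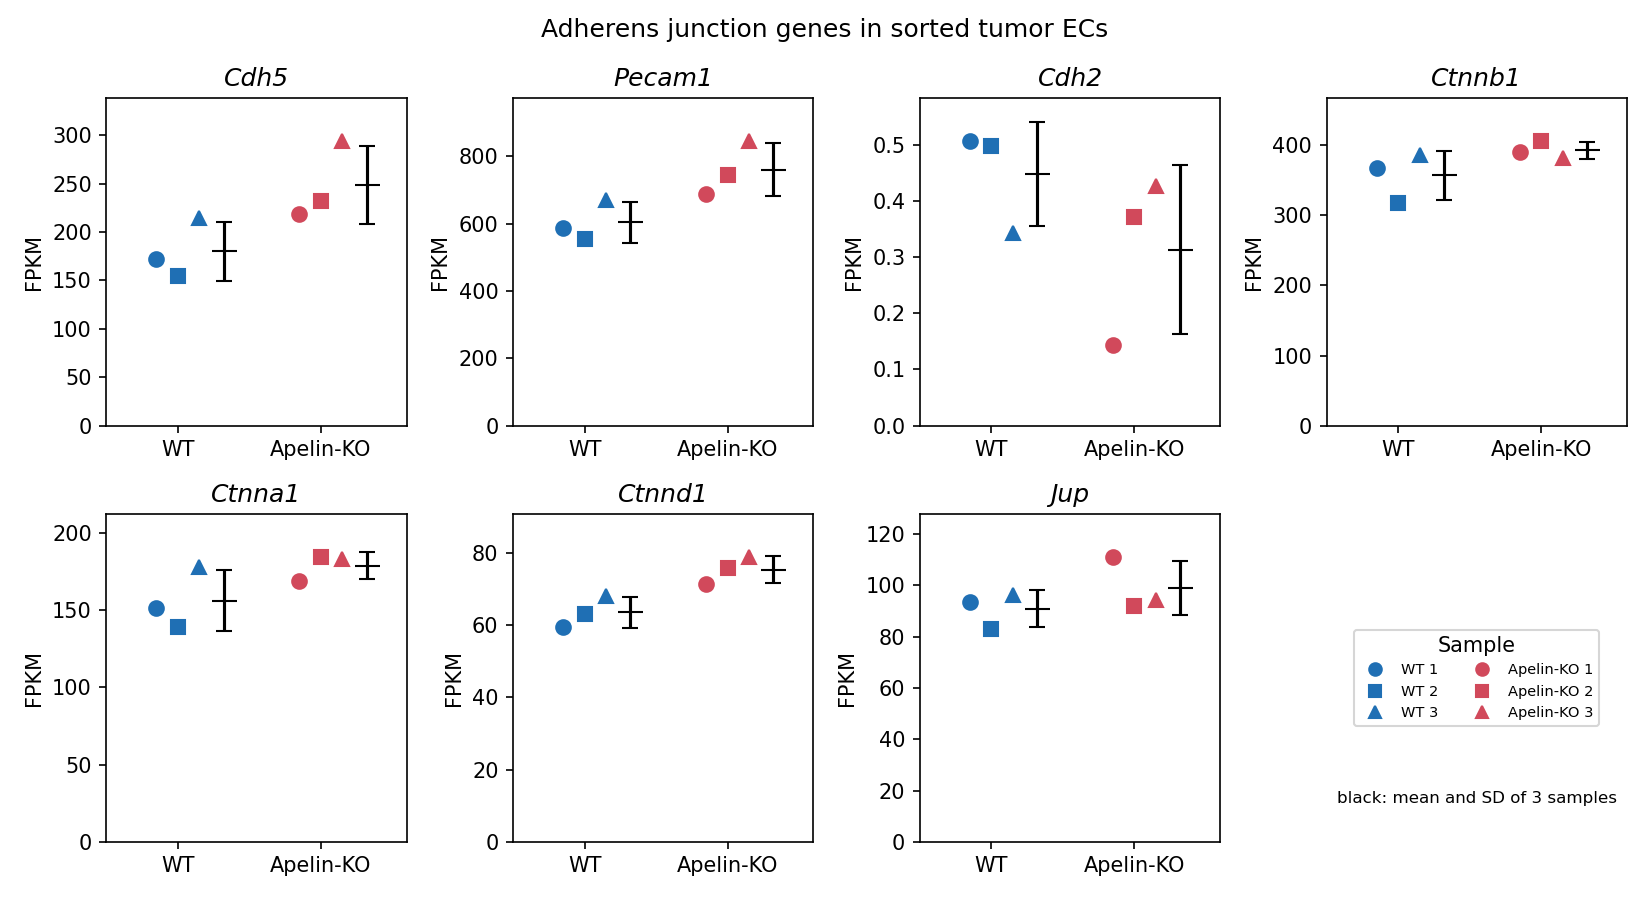
FPKM of each gene in each sample, with the mean and SD of 3 samples per genotype in black and every axis starting at 0. The groups do not overlap for Cdh5, Pecam1 and Ctnnd1, which are lower in WT ECs.

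All 6 genes tested had a fold change below 0, which means lower in WT ECs, as did 52.5% of all genes tested. An unadjusted p-value under 0.05 with lower levels in WT ECs was reached by 3 of the 6 (Cdh5, Pecam1 and Ctnnd1), against 4.25% of all genes tested. The groups did not overlap, with WT lower, for the same 3 genes, against 7.77% of all genes tested. None of the 6 had an adjusted p-value under 0.05, which 0.00912% of all genes tested had, namely Apln alone. The median log2 fold change of the 6 genes was -0.22, and that of all genes tested -0.01. The unadjusted calls changed with single samples. The number of the 6 genes with an unadjusted p-value under 0.05 was 0 without WT 1, 0 without WT 2, 0 without Apelin-KO 3, 1 without Apelin-KO 2, 3 without Apelin-KO 1 and 4 without WT 3. In the same order, 2.88%, 2.05%, 2.64%, 4.89%, 4.43% and 4.42% of all genes tested had such a p-value with lower levels in WT ECs. All 6 fold changes were below 0 in each of these fits, that of Cdh5 lay between -0.59 and -0.33, and the groups did not overlap for 3 to 5 of the 6, against 10.7% to 15.8% of all genes tested with WT lower. With the variance of each gene alone, the unadjusted p-value of Cdh5 was 0.0711 in limma. That of Ctnnd1 was 0.0512 with a pseudocount of 0.1, 0.0912 with each sample scaled to the same FPKM sum and 0.0530 with median-of-ratios scaling, while that of Pecam1 was under 0.05 in each of these 4 fits.

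The endothelial markers were also lower in WT ECs. The mean log2(FPKM + 1) of the 15 endothelial markers was 8.06, 7.92 and 8.20 in WT 1 to 3, against 8.27, 8.21 and 8.27 in Apelin-KO 1 to 3. The groups did not overlap, with a difference of -0.19 (exact permutation test, two-sided, p = 0.1, the smallest p-value that 3 against 3 allows). When all samples were shifted to the same endothelial marker mean, the median of all genes tested became 0.18 in the direction of WT, and the log2 fold changes were -0.27 for Cdh5, -0.14 for Pecam1, -0.06 for Ctnnd1, -0.01 for Ctnna1, 0.05 for Ctnnb1 and 0.07 for Jup. All 6 intervals then contained 0, and the groups overlapped for each gene. With this scaling, 0.52% of all genes tested had an unadjusted p-value under 0.05 and lower levels in WT ECs, and 1.02% did not overlap with WT lower, so that none of 6 is near the share of all genes. Relative to the endothelial marker mean of its own sample, Cdh5 lay at -0.63, -0.64 and -0.46 in WT 1 to 3, against -0.50, -0.34 and -0.07 in Apelin-KO 1 to 3, in log2 units (exact permutation p = 0.2, adjusted over 7 genes p = 0.7). In bulk RNA, a smaller share of ECs and less RNA of these genes per EC cannot be told apart. Hematopoietic and fibroblast marker sums were highest in WT 1 and WT 2, which were also the samples with the lowest Cdh5 and Pecam1. The 13 pericyte markers summed to between 144 and 182 FPKM in WT samples and between 187 and 212 FPKM in Apelin-KO samples, and did not overlap. The part of these cells in the differences was not tested.

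**Figure D3:**
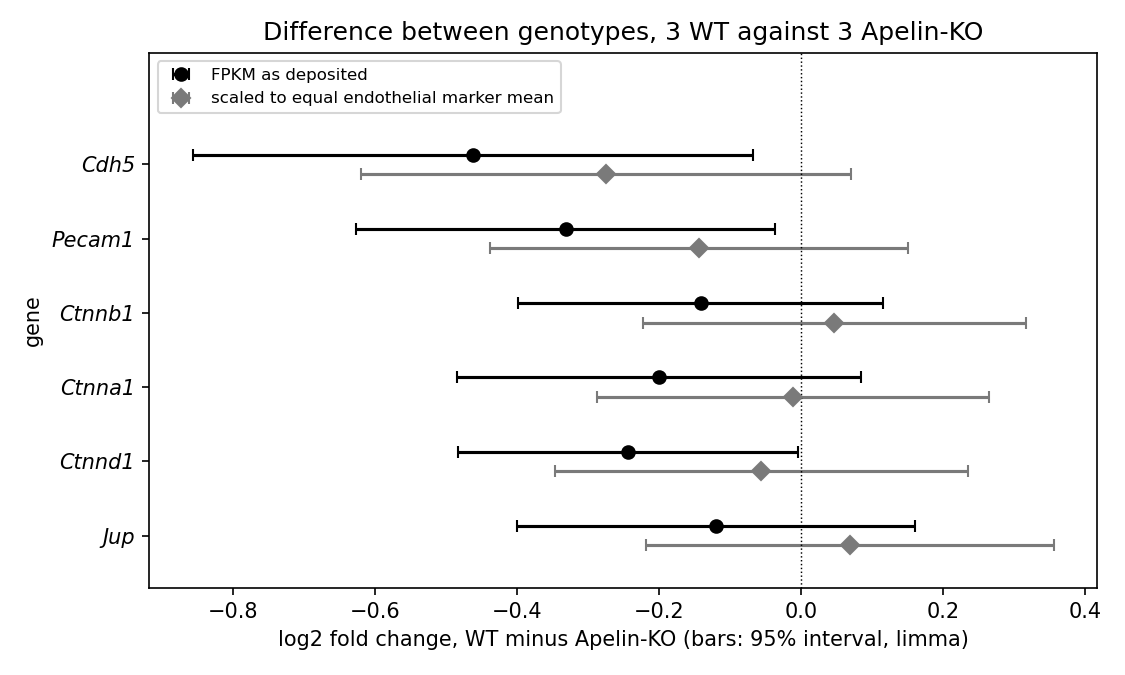
Log2 fold change (WT minus Apelin-KO) with 95% intervals for the 6 genes tested, from FPKM as deposited (black circles) and after scaling to an equal endothelial marker mean (grey diamonds). With the deposited values the intervals of Cdh5, Pecam1 and Ctnnd1 lie below 0, and after scaling all 6 include 0.

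Ratios within a sample do not depend on how samples are scaled, and 6 of them were compared, each by an exact two-sided permutation test that cannot go below 0.1. The ratio of β-catenin to VE-cadherin was 2.14, 2.06 and 1.80 in WT 1 to 3, against 1.78, 1.75 and 1.30 in Apelin-KO 1 to 3. The groups did not overlap, though WT 3 and Apelin-KO 1 nearly met (exact p = 0.1, adjusted over 6 ratios p = 0.3). The ratio of Cdh2 to Cdh5 was 0.00295, 0.00321 and 0.00160 in WT samples and 0.000654, 0.00160 and 0.00145 in Apelin-KO samples (exact p = 0.1, adjusted p = 0.3). WT 3 and Apelin-KO 2 differed only beyond the third digit, and the numerator rests on few reads.

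Pecam1 was 3.38 ± 0.225 times Cdh5 in WT ECs and 3.08 ± 0.179 times in Apelin-KO ECs (SD, n = 3 each, exact p = 0.3). Ctnnd1 was 0.358 ± 0.0457 and 0.307 ± 0.0338 times Cdh5 (SD, n = 3 each, exact p = 0.3). Ctnna1 was 0.437 ± 0.0243 times Ctnnb1 in WT ECs and 0.456 ± 0.0227 times in Apelin-KO ECs (SD, n = 3 each, exact p = 0.5). Plakoglobin was 0.255 ± 0.00536 times β-catenin in WT ECs and 0.253 ± 0.0300 times in Apelin-KO ECs (SD, n = 3 each, exact p = 0.8), or between 18.5% and 22.2% of both together.

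Across the 6 samples, Pecam1 followed Cdh5 closely. Ordered by Cdh5, the samples ran WT 2, WT 1, WT 3, Apelin-KO 1, Apelin-KO 2 and Apelin-KO 3, and the order by Pecam1 was the same. Pearson's r of log2(FPKM + 1) was 0.99 over the 6 samples, and 0.99 after the mean of each genotype was subtracted. Of all genes tested, Pecam1 ranked 4 by this correlation with Cdh5. The 5 genes most like Cdh5 were N4bp3, Ubn1, Rapgef1, Pecam1 and Spats2l, with r of 0.99 or above and the same order of samples as Cdh5 in each. Rapgef1 encodes an exchange factor for Rap1 that acts downstream of cadherin contacts, and its level was 29.3, 28.4 and 34.5 FPKM in WT 1 to 3, against 35.5, 37.3 and 42.6 FPKM in Apelin-KO 1 to 3.

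The catenins followed Cdh5 to different degrees. The correlation was 0.92 for Ctnnd1, 0.91 for Ctnna1, 0.73 for Ctnnb1 and 0.42 for Jup, and within genotypes it was 0.79, 0.82, 0.50 and 0.07. Ctnnb1 and Ctnna1 had a correlation of 0.90 with each other. These correlations are over 6 samples that share 2 genotypes and the scaling of each library. The endothelial markers were spread by the same measure, from 0.96 for the receptor Tie1 to -0.14 for Ecscr.

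**Figure D4:**
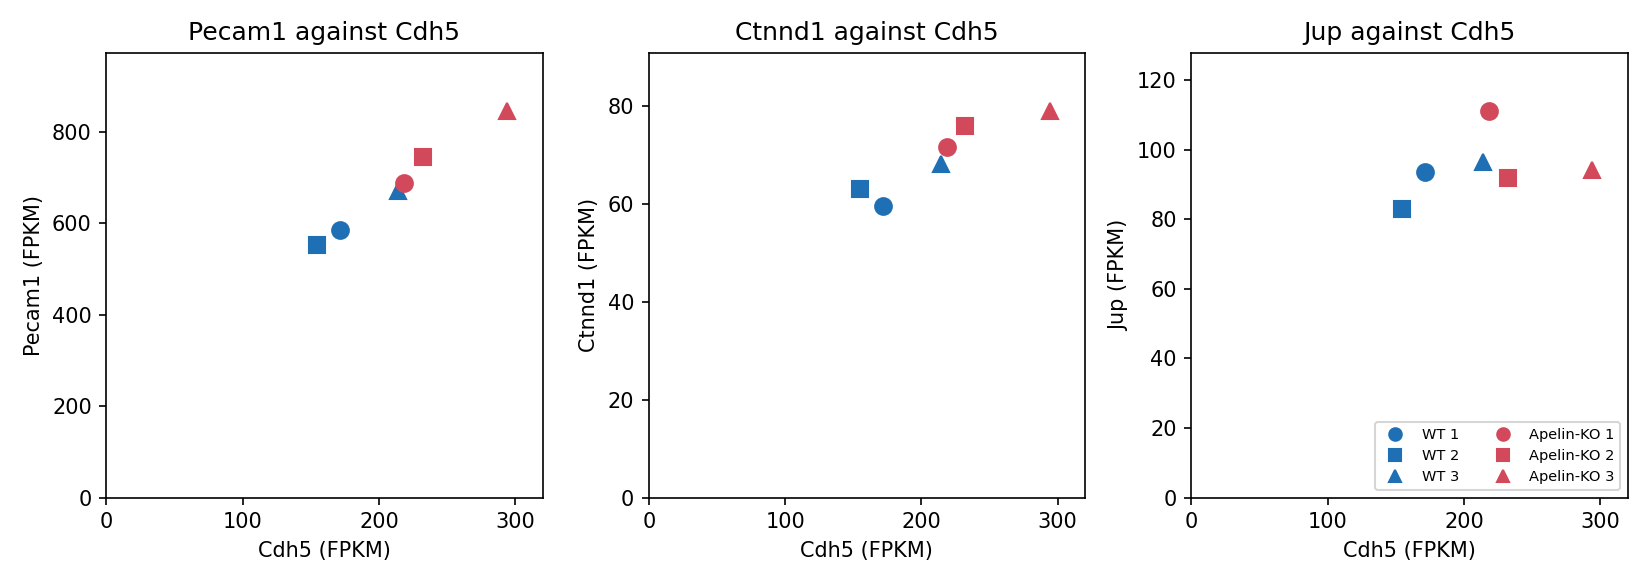
FPKM of Pecam1, Ctnnd1 and Jup against FPKM of Cdh5, 1 point per sample, with blue for WT and red for Apelin-KO. The Pecam1 points lie near a line (r of 0.99), while the Jup points are more scattered (r of 0.42).

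Other genes of the junction were described in lists. Of 77 further junction genes tested, 12 had an unadjusted p-value under 0.05 with lower levels in WT ECs and 1 with higher levels, against 4.25% and 5.17% of all genes tested. None of these passed the adjusted threshold. The median log2 fold change was -0.11, against -0.01 for all genes tested. The fold change was below 0 for 55 of the 77, as it was for 52.5% of all genes tested. The count of 12 became 6 without WT 1, 1 without WT 2, 2 without Apelin-KO 3, 7 with the variance of each gene alone and 0 after scaling to the endothelial marker mean. The shares of all genes tested in these fits were 2.88%, 2.05%, 2.64%, 3.71% and 0.52%, so that the counts of 1, 2 and 0 are near the shares of all genes.

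By list, the median was lowest for nectins and afadin (-0.31), catenin relatives (-0.29) and other cadherins (-0.28), followed by actin linkers (-0.16), cadherin turnover (-0.10) and junction phosphatases and kinases (-0.07). It was 0.01 for the partners of PECAM1 at the lateral border, 0.01 for Wnt target genes and 0.03 for the β-catenin destruction complex.

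Among other cadherins, 5 of 10 were tested, and 2 of them, Pcdh1 and Pcdh12, had an unadjusted p-value under 0.05 and lower levels in WT ECs, against 4.25% of all genes tested. T-cadherin (Cdh13), which is held in the membrane by a lipid anchor and binds no catenin, had the highest level of the list, with 301 ± 55.5 FPKM in WT against 367 ± 49.3 FPKM in Apelin-KO ECs (SD, n = 3 each, adjusted p = 0.610 from limma). Pcdh12, also called VE-cadherin-2, was at 30.1 ± 3.63 FPKM and 36.6 ± 1.73 FPKM (SD, n = 3 each, adjusted p = 0.525 from limma). Pcdh1 was at 73.1 ± 6.60 FPKM and 94.7 ± 9.70 FPKM (SD, n = 3 each, adjusted p = 0.501 from limma). E-cadherin (Cdh1), the cadherin of epithelia, averaged 0.158 FPKM.

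The relatives of the catenins were mostly low, since 7 of 10 did not reach a mean of 1 FPKM. Ctnna2 and Ctnna3, the α-catenins of neurons and of heart and testis, averaged 0.00467 and 0.0138 FPKM, and Ctnnd2 averaged 0.00567 FPKM. Ctnnbip1, an inhibitor that keeps β-catenin from binding TCF factors, was at 35.4, 37.3 and 39.9 FPKM in WT 1 to 3, against 52.9, 43.3 and 55.5 FPKM in Apelin-KO 1 to 3. Its groups did not overlap, and the log2 fold change was -0.41 (SE 0.12, unadjusted p = 0.0125, adjusted p = 0.501 from limma).

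Nectins, which form the second adhesion system of the junction, and their actin adaptor afadin had a fold change below 0 for all 4 genes tested of 6, as did 52.5% of all genes tested. Of the 4, only afadin had an unadjusted p-value under 0.05, which 4.25% of all genes tested had with lower levels in WT ECs. Afadin (listed as Mllt4) was at 9.92 ± 1.08 FPKM in WT against 13.05 ± 1.96 FPKM in Apelin-KO ECs, without overlap (SD, n = 3 each, adjusted p = 0.515 from limma). Nectin-2 (listed as Pvrl2) was the highest of the list, with 88.1 ± 16.6 FPKM and 114 ± 25.5 FPKM and overlapping groups (SD, n = 3 each, adjusted p = 0.611 from limma).

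Of 10 actin linkers tested, 2 had an unadjusted p-value under 0.05, both lower in WT ECs, against 4.25% of all genes tested. They were Ajuba, a LIM protein that binds α-catenin, at 17.1 ± 2.71 FPKM against 22.7 ± 2.24 FPKM, and Ablim1, an actin-binding LIM protein, at 34.6 ± 4.98 FPKM against 49.9 ± 12.8 FPKM (SD, n = 3 each, adjusted p = 0.513 and 0.518 from limma). The groups did not overlap, with WT lower, for 4 of the 10, against 7.77% of all genes tested.

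Phosphatases and kinases of the junction gave 2 genes lower and 1 higher in WT ECs by an unadjusted p-value below the threshold of 0.05, of 12 tested. Of all genes tested, 4.25% were lower and 5.17% higher by this measure, so that the single gene higher in WT ECs is near the share of all genes. Ptprb, which encodes VE-PTP, the phosphatase bound to VE-cadherin, was at 44.4, 42.8 and 50.5 FPKM in WT 1 to 3, against 56.8, 53.3 and 58.3 FPKM in Apelin-KO 1 to 3. It did not overlap between the groups, and the log2 fold change was -0.29 (SE 0.11, adjusted p = 0.513 from limma). Fyn, a Src-family kinase, was at 108 ± 12.8 FPKM in WT against 134 ± 8.34 FPKM in Apelin-KO ECs (SD, n = 3 each, adjusted p = 0.515 from limma). Ptpn6, the phosphatase SHP-1 of blood cells, was the gene with higher levels in WT ECs, at 5.35, 9 and 2.37 FPKM in WT 1 to 3, against 1.42, 2.70 and 1.67 FPKM in Apelin-KO 1 to 3 (adjusted p = 0.512 from limma). It overlapped between the groups. The hematopoietic marker Ptprc (CD45) had the same highest and lowest samples, at 4.84 FPKM in WT 2 and 0.043 FPKM in Apelin-KO 1.

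No gene of cadherin turnover (9 tested), of the partners of PECAM1 at the lateral border (7 tested) or of the β-catenin destruction complex (7 tested) had an unadjusted p-value under 0.05. At the shares of all genes tested (4.25% lower and 5.17% higher in WT ECs), lists of this size would hold less than 1 such gene each. Adam10, the protease that sheds VE-cadherin, was at 183 ± 19.4 FPKM in WT against 199 ± 18.4 FPKM in Apelin-KO ECs (SD, n = 3 each, adjusted p = 0.791 from limma). Esam, an immunoglobulin-family adhesion molecule of EC contacts, was at 947 ± 98.7 FPKM and 1099 ± 81.7 FPKM, and Icam2 at 361 ± 35.2 FPKM and 354 ± 38.7 FPKM (SD, n = 3 each, adjusted p = 0.599 and 0.962 from limma). Of 12 Wnt target genes only 3 reached a mean of 1 FPKM, and Axin2, a general target of β-catenin, averaged 0.0672 FPKM. Sox17, an endothelial transcription factor that was listed as a Wnt target, was at 18.1, 16.9 and 20.3 FPKM in WT 1 to 3, against 28.2, 20.8 and 28.5 FPKM in Apelin-KO 1 to 3 (log2 fold change -0.46, adjusted p = 0.501 from limma). None of the 7 genes listed as desmosome genes reached a mean of 1 FPKM, and Dsp averaged 0.0112 FPKM.

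**Figure D5:**
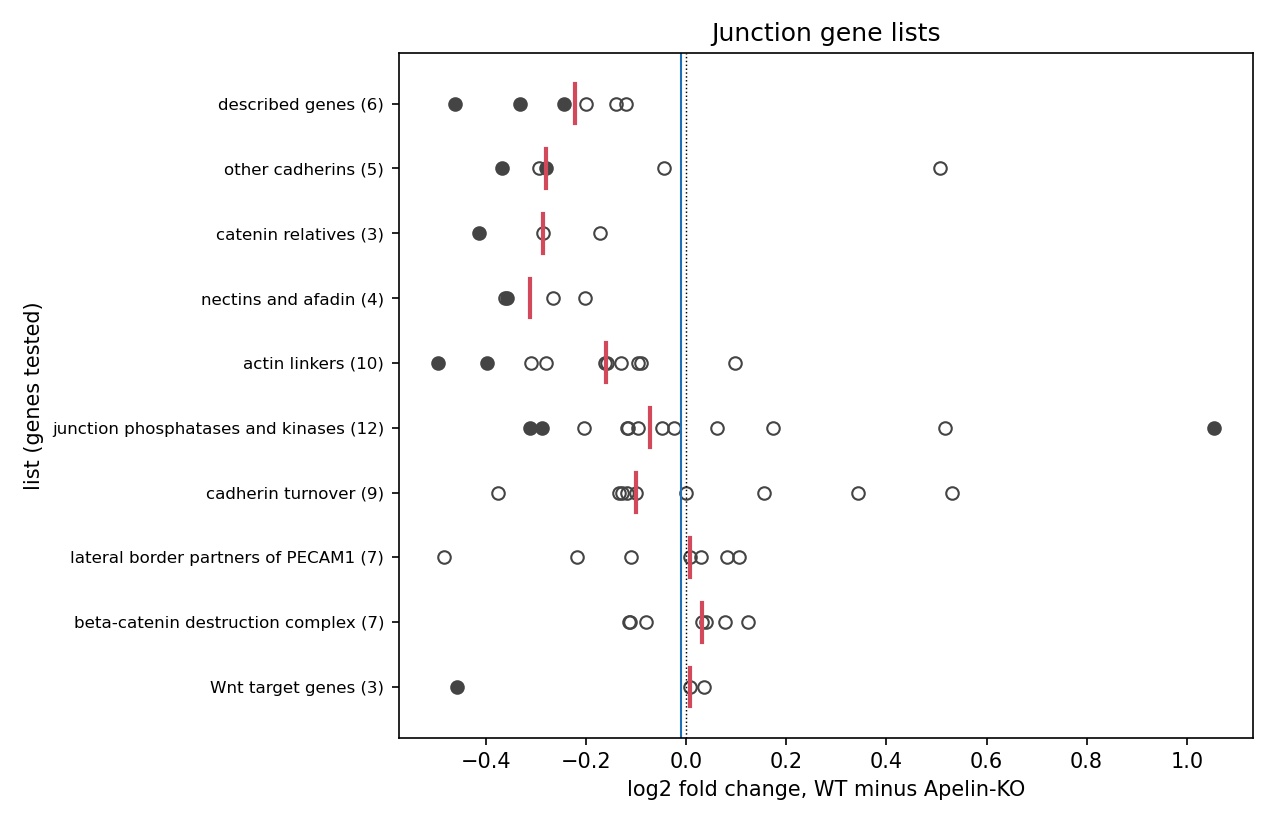
Log2 fold change (WT minus Apelin-KO) of the 6 described genes and of further junction genes tested, by list, with the number tested in brackets. Filled circles have an unadjusted limma p-value under 0.05, red bars are list medians, the blue line is the median of all genes (-0.01), and circles left of 0 are lower in WT ECs.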

How the data were processed

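RNA of CD31-positive, CD45-negative tumor ECs was prepared as stranded mRNA libraries and sequenced in a 75-base single-end mode. Per the submitters' processing notes, TopHat2 2.1.1, Bowtie2 2.2.4, SAMtools 1.0 and Cufflinks 2.2.1 were used with mm10. The publication names other versions of the aligner. The authors deposited FPKM per gene symbol with 3 decimals, 1 file per sample. The annotation and strand setting are not given in the sources used here.

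FPKM were used as deposited, as log2(FPKM + 1), which understates the change of low genes. A gene entered the comparison if its mean reached 1 FPKM (10964 of 24346). The test was that of limma 3.58.1, run in R 4.3.3 (two-sided moderated test, no block, no trend, Benjamini-Hochberg). The moderated test replaced Student's test, which was kept as an alternative. The fit was tested on simulated data. Ratios used exact permutation tests. Depth was estimated from genes with 1 annotated transcript over 700 bases, assuming 200-base fragments. For each sample, the depth was chosen that put most low values of these genes within 0.1 of a whole read. That share was between 69.0% and 73.3% and, since it was maximized, is no check of the estimate. Reads per gene use the longest transcript. Positions come from GENCODE M21 (GRCm38, the build of mm10). Python 3.11.15 and matplotlib 3.10.9 were used for the rest.

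The genes described and all lists were chosen with earlier results of these data known. Named are the 7 genes, Apln, in each list the 2 genes with the highest mean FPKM and the 2 with the lowest unadjusted p-value or some of these, the 5 genes most like Cdh5, and defining markers. Cdh1, Ctnna2, Ctnna3, Ctnnd2, Axin2, Dsp, Tie1 and Ecscr were named after their values were seen. Of 112 list entries, 111 were matched. The genes of 1 list enter the counts over all junction genes but its own result is not reported here. Platelet and lymphatic marker lists were also read. Their sums lay between 7.21 and 11.0 FPKM, and between 193 and 457 FPKM, with overlap of the genotypes. Alternatives changed the pseudocount, filter, scaling, trend, variance and block, or left out each sample.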

Additional observations from a re-analysis of the deposited data

How the results depend on the processing

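None of the 90 alternative values of the 6 genes tested had an adjusted p-value under 0.05, and the lowest was 0.254. Of these values, 88 were lower in WT ECs. The exceptions were Ctnnb1 (0.047) and Jup (0.068) with endothelial marker scaling. Over the fits that left out 1 sample, log2 fold changes ranged between -0.59 and -0.33 for Cdh5, -0.41 and -0.25 for Pecam1, -0.29 and -0.20 for Ctnnd1, -0.30 and -0.12 for Ctnna1, -0.20 and -0.06 for Ctnnb1, and -0.17 and -0.04 for Jup.

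Genes with an adjusted p-value under 0.05 numbered 1 in the comparison as reported, 2 without the filter, 2 with the stricter filter of 5 FPKM, 2 with an intensity trend, 0 with gene-wise variance (where 783 genes had an unadjusted p-value under 0.05), and 0 to 3 with 1 sample left out. By unadjusted p-value, genes higher in WT ECs numbered 567, against 330 with the stricter filter of 5 FPKM, 376 with gene-wise variance, 1513 with endothelial marker scaling and 312 to 743 with 1 sample left out. Genes lower in WT ECs numbered 466, against 57 with endothelial marker scaling and 224 to 537 with 1 sample left out. For the junction lists, the higher count of 1 was 4 without the filter and 0 with the stricter filter of 5 FPKM. It was 2 with endothelial marker scaling, 2 with the replicate block and 0 to 4 with 1 sample left out. The number of list genes tested changes with the filter. Over all genes tested, 805 of 16341 were higher in WT ECs without the filter and 330 of 7878 with the stricter filter. With endothelial marker scaling 1513 of 10964 were higher, and with the replicate block 529 of 10964. With 1 sample left out, 312 to 743 of at least 10912 were higher. The lower count of 12 was 0 with endothelial marker scaling, 7 with gene-wise variance and 1 to 13 with 1 sample left out. The shares of all genes tested in these fits were 0.52%, 3.71% and between 2.05% and 4.89%. The cause of these shifts was not tested.

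The log2 ratio of Jup to Ctnnb1 ranged from -0.055 to 0.11 with 1 sample left out and turned at -0.055 without Apelin-KO 2. Relative to the endothelial markers, Ctnna1 ranged from -0.064 to 0.033 and turned without WT 1 (0.0065) and without Apelin-KO 2 (0.033). The other ratios and relative levels kept their direction under each alternative run, but their sizes moved with single samples. Without Apelin-KO 3, Cdh5 relative to the endothelial markers was -0.16 and Pecam1 -0.07, and the log2 ratio of Ctnnb1 to Cdh5 was 0.18 in place of 0.32. Without WT 1, Ctnnd1 relative to the endothelial markers was -0.0096.

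Samples of WT and Apelin-KO share the numbers 1 to 3 in their labels. Deviations of samples with the same number had correlations of -0.14, 0.21 and -0.02, and those with other numbers lay between -0.20 and 0.21. The deviations of 3 samples from their own mean are tied to each other, so these correlations cannot decide whether the samples were paired. In the main comparison the numbers were not taken as pairs. With the replicate block, 529 of 10964 genes were higher and 364 lower in WT ECs by unadjusted p-value. Of the 6 genes, 2 (Cdh5 and Pecam1) passed the threshold of 0.05, both lower in WT ECs, against 3.32% of all genes tested. Their unadjusted p-values in limma were 0.0103 and 0.0323, and that of Ctnnd1 was 0.0726. None of the 6 passed the adjusted threshold. FPKM carry no counts, and estimated reads limit Cdh2 most.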
